A study of Mus musculus with 6 samples.

Results

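The insulin-like growth factor 1 (IGF1) axis and the IGF binding proteins were examined in mouse ovarian cancer cells. The 10 genes were the ligand gene Igf1, the receptor genes Igf1r and Igf2r, the adaptor gene Irs1 and the binding protein genes Igfbp2 to Igfbp7. They were taken by gene symbol in the platform annotation, which gave 24 probes, and stand among 19057 genes named on the array by a probe with 1 symbol. The choice was by name, made with earlier results of these data known.

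The arrays compared parental ID8, a line of mouse ovarian surface epithelial origin from C57BL/6 females, with ID8-M, in 3 samples each. For ID8-M, parental ID8 cells had been placed in the peritoneal cavity of 8-week-old female C57BL/6 mice, recovered from the ascites 12 weeks later, picked as clones and passaged. ID8-M is therefore 1 line grown from picked clones, and the labels do not say whether the 3 samples of a line were separate cultures. The p-values below measure the spread between these samples, which may be technical. Both lines grew in the same medium, which held 4% serum and also insulin at 5 µg/ml, transferrin at 5 µg/ml and selenite at 5 ng/ml, with penicillin and streptomycin, and no treatment was given. All 6 arrays lay on 1 bead chip, parental ID8 at positions A to C and ID8-M at D to F, so position and line cannot be told apart.

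IGF1 is a secreted growth factor that binds the receptor tyrosine kinase IGF1R, which signals through adaptors such as IRS1 to the PI3K-AKT and MAP kinase branches. The binding proteins hold IGFs outside the cell and can block or prolong their action, and proteases release the ligand by cutting them. IGF2R is a sorting receptor that carries lysosomal enzymes and removes IGF2 from the surface. In the ovary, IGF1 acts with gonadotropins in follicle growth, and IGF signalling is a known growth input of ovarian cancer cells.

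Between 16386 and 17186 probes were detected per array (detection p under 0.05 against the negative controls of that array). Arrays correlated at 0.993 to 0.995 within a line and 0.967 to 0.970 between lines over the 16221 tested probes. Epithelial markers were present, with Krt7, Krt8, Krt18 and Krt19 detected on every array, while Epcam was detected on none. They differed between the lines, since 5 of 7 tested epithelial markers rose in ID8-M and Cdh1 fell, and their summed normalized intensity lay between 22123 and 23582 units in parental ID8 and between 36873 and 39839 in ID8-M. Of 7 endothelial markers measured, Pecam1 alone was tested, with detection on 0 parental and 3 ID8-M arrays. The part of these markers in the results below was not tested. Of 13 leukocyte markers measured, Cd14 and Cd3e were tested and 11 were not, and Ptprc, Adgre1, Csf1r, Lyz2 and Itgam, which define leukocytes and macrophages, were detected on 0 arrays.

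Of the 10 genes, Igf1 and Igf2r fell in ID8-M and Igfbp6 rose (limma, Benjamini-Hochberg adjusted p under 0.05 over all tested probes). Igf1 carried the largest difference of the group, a 2.57-fold fall. Igf1r, Irs1, Igfbp4 and Igfbp7 were measured and did not pass the test by their brightest probes. Igfbp2, Igfbp3 and Igfbp5 were at background and were not tested. A probe was tested where it was detected on all 3 arrays of at least 1 line, and a gene was represented by its brightest tested probe. This left 12 of the 24 probes and 7 of the 10 genes.

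Over all 8933 tested genes 15.4% were called higher and 15.3% lower, 30.8% in all. The count of 3 called among 7 tested members (42.9%) stands beside that background, and with 7 genes nothing particular to the group is read from it. The median log2 difference of the 7 genes, ID8-M minus parental, was -0.22, against -0.03 over all tested genes. Per probe, 5 of the 12 tested were called, 1 higher and 4 lower, where 28.4% of all tested probes were called. In 9 of the 12 the 3 ID8-M arrays lay entirely above or below the 3 parental arrays, which held for 44.6% of all tested probes.

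**Figure D1:**
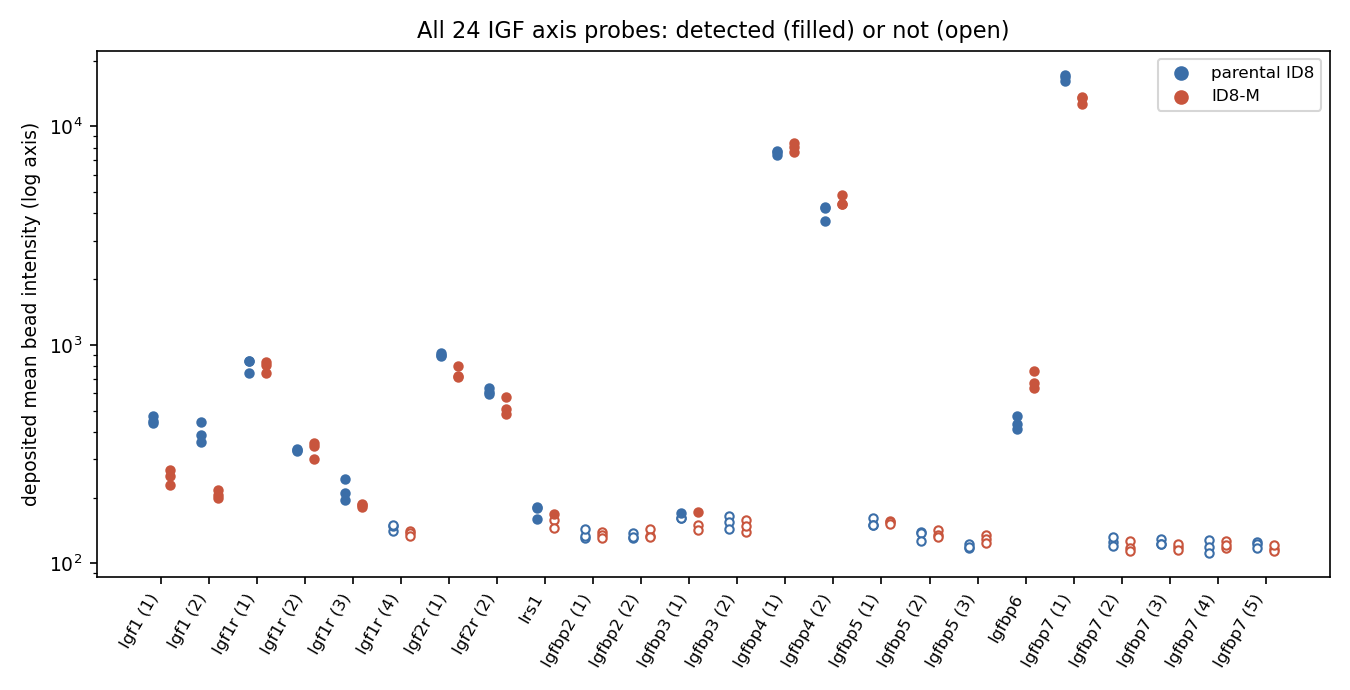
Deposited mean bead intensity (log axis, not background subtracted) of all 24 probes on each array, parental ID8 in blue and ID8-M in red. Filled points were detected on that array (detection p under 0.05) and open points were not. Numbers in brackets order the probes of a gene by brightness. The probes of Igfbp2, Igfbp5 and all but 1 of Igfbp7 are open on every array, and Igfbp7 (1) and Igfbp4 (1) are the brightest.

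The 250 bases upstream of the annotated start are shown for the 3 called genes, because their transcript levels are what differed between the lines (RefSeq, GRCm38.p6, 5′ to 3′ on the gene's own strand). All 10 genes were matched in the RefSeq promoter table. Igf1 lies on chromosome 10 (chr10:87860861-87861110, plus strand), Igf2r on chromosome 17 (chr17:12769707-12769956, minus strand) and Igfbp6 on chromosome 15 (chr15:102143936-102144185, plus strand). Capitals mark matches on either strand, and neighbouring matches run together. The motifs searched were the TATA box, spelled TATAAA, and the box named for its own letters, CCAAT. The GC box was spelled GGGCGG and the E-box CACGTG. A motif of the FOXO type was searched as GTAAACA, and a motif of the STAT type as TTCNNNGAA. The E-box was added to the search after these sequences were seen.
Igf1: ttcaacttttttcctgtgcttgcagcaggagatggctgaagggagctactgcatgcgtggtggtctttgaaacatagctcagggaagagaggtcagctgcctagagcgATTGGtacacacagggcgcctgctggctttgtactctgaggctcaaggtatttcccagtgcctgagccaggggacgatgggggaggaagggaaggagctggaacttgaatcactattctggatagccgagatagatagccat
Igf2r: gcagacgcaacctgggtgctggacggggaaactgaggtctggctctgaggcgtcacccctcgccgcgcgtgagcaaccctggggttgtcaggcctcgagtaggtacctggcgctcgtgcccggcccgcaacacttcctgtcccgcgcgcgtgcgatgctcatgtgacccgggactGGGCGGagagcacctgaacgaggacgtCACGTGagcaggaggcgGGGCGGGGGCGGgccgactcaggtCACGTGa
Igfbp6: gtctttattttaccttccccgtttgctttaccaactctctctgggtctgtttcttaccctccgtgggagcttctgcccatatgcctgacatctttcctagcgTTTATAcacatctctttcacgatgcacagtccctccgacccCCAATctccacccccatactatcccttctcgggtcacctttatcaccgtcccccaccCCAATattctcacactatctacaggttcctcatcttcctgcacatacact

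The 3 windows differed in make-up. Igf2r held 27 CG dinucleotides, more than 91.4% of the 32851 promoter windows of this length, and Igf1 held 5 and Igfbp6 held 7, near the median of 6. Igf1 had 1 CCAAT box, which 33.8% of all windows hold, and none of the other motifs. Igfbp6 had 1 TATA box (12.4% of windows) and 2 CCAAT boxes. Igf2r had 3 GC boxes (32.7% of windows) and 2 E-boxes (6.02% of windows). The FOXO-type motif (3.17% of windows) and the STAT-type motif (7.02% of windows) were in 0 of the windows of the 10 genes. Among the 10 genes, Igfbp2 had more than 1 window. The matches shown describe the letters of 1 annotated start for each of the 3 called genes, and Igf1 is known to use other starts too.

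The ligand was lower in ID8-M by both of its probes. Levels are given as background-corrected, normalized log2 intensities. The brighter Igf1 probe read 8.28, 8.40 and 8.47 in parental ID8 and 7.11, 6.80 and 7.15 in ID8-M. The lines did not overlap, and the lowest parental array lay above the highest ID8-M array by more than either line's own range. The mean fell from 8.38 ± 0.09 to 7.02 ± 0.19 (SD, n = 3 each), a log2 difference of -1.36 ± 0.11 (SE, 95% interval -1.62 to -1.10, limma adjusted p = 6.56e-05).

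The dimmer Igf1 probe read 8.02, 8.26 and 8.01 in parental ID8 and 6.25, 6.67 and 6.58 in ID8-M, again without overlap. It fell by 1.60 ± 0.13 on the log2 scale (SE, 95% interval -1.89 to -1.30, limma adjusted p = 5.05e-05), a 3.03-fold fall. Both probes are annotated to the same transcript and share the same RNA samples, so they are not independent replicates. Igf1 remained detected on all 6 arrays by both.

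In the deposited intensities, before background correction, the brighter Igf1 probe gave 440, 474 and 448 units on the parental arrays and 267, 228 and 250 on the ID8-M arrays. The standard error over the beads of an array was at most 4.81% of the intensity, with 27 to 55 beads per array. The gap between the lines was thus larger than the error within any array. Without background subtraction the log2 difference was -0.86, still called. The size of the fall therefore depends on the background correction, and its direction does not.

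Igf1 ranked 280 by size of difference among the 8933 tested genes, and 59 when counted from the lowest difference. Leukocytes and fibroblasts are known sources of IGF1 in tissues. The summed normalized intensity of the 2 tested leukocyte markers lay between 525 and 648 units in parental ID8 and between 428 and 466 in ID8-M, so it moved the same way as Igf1. Cd14 accounted for the called fall among them, and the defining markers named above were at background on all 6 arrays. Of 9 fibroblast and stroma markers measured, Dcn and Col1a1 were tested, with summed intensities of 4450 to 4801 units in parental ID8 and 6949 to 7162 in ID8-M, and Pdgfra, Pdgfrb, Thy1 and Col3a1 were detected on 0 arrays. Fewer cells that make a transcript and less of it per cell cannot be told apart in these bulk samples.

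**Figure D2:**
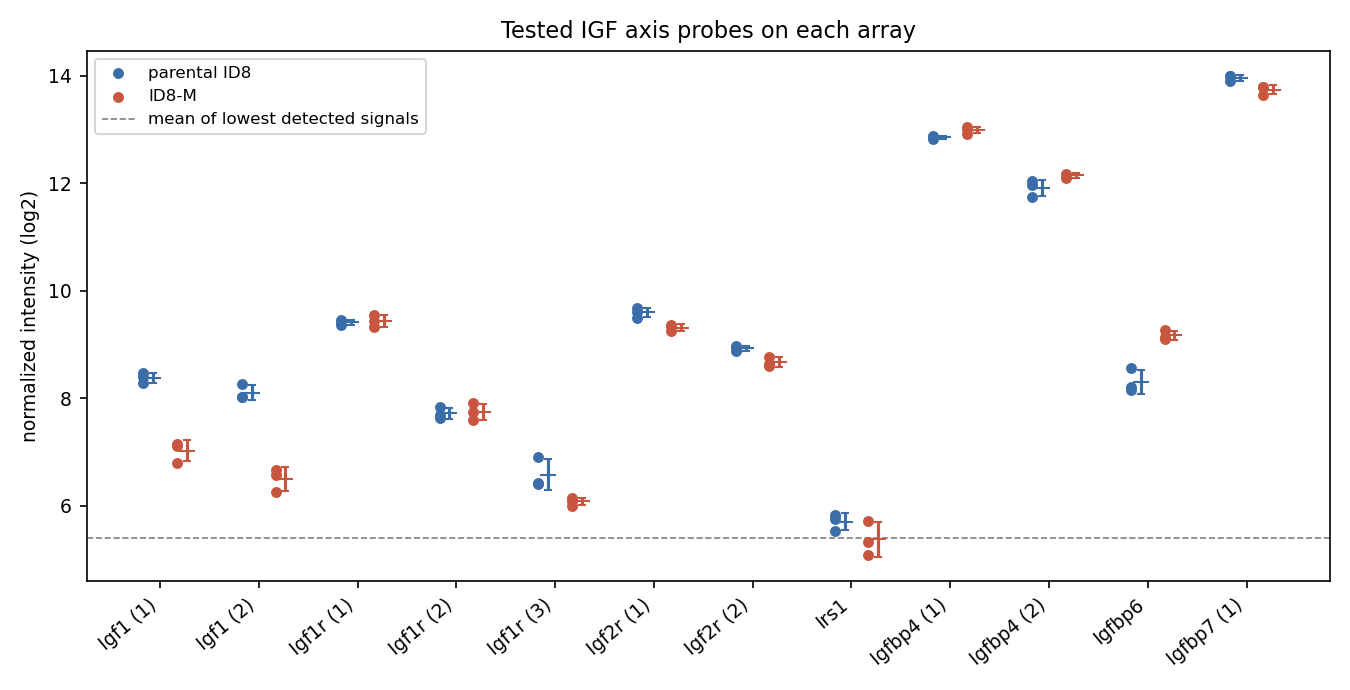
Normalized log2 intensity of the 12 tested probes on each array, with points for arrays and, beside them, the mean and SD of each line (n = 3). Numbers in brackets order the probes of a gene by brightness, and the dashed line is the mean of the lowest detected signals. Both Igf1 probes are lower in ID8-M, Igfbp6 is higher, and Irs1 lies at the detection limit. Heights of different probes are not comparable.

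Igf1r, the signalling receptor, showed no difference past the test by its 2 brightest probes. The brightest read 9.45, 9.42 and 9.36 in parental ID8 and 9.43, 9.32 and 9.54 in ID8-M, with overlap. Its log2 difference was 0.02 ± 0.09 (SE), with a 95% interval from -0.18 to 0.22 (limma adjusted p = 0.897). The second probe differed by 0.03 ± 0.10, with an interval from -0.20 to 0.27 (limma adjusted p = 0.841).

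The dimmest tested Igf1r probe was called lower. It read 6.91, 6.41 and 6.40 in parental ID8 and 6.00, 6.14 and 6.09 in ID8-M, a difference of -0.49 ± 0.14 (SE, limma adjusted p = 0.0318). The lines did not overlap, and the first parental array stood above the other 2. Leaving out any of the 3 ID8-M arrays ended this call, with adjusted p between 0.0625 and 0.0895. This probe has no accession in the annotation used, and the remaining Igf1r probe was detected on 0 arrays. The probes of Igf1r therefore disagree, with the call on the dimmest of those tested.

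Igf2r, which in mice is expressed mainly from the maternal allele, was slightly lower in ID8-M. Its brighter probe read 9.61, 9.50 and 9.68 in parental ID8 and 9.36, 9.24 and 9.34 in ID8-M, without overlap. The log2 difference was -0.28 ± 0.09 (SE, 95% interval -0.48 to -0.09, limma adjusted p = 0.0398), a 1.22-fold fall. The other probe gave a like difference of -0.25 ± 0.08, also without overlap, and just missed the threshold (limma adjusted p = 0.0541).

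The Igf2r call sat at the edge of the test. Leaving out any 1 of 5 arrays ended it (limma adjusted p of 0.127 at most), while it held without parental 2 (limma adjusted p = 0.0413). A difference of this size was common, since 36.9% of all tested genes had a larger difference.

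Irs1, the adaptor that links the receptor to PI3K, was near the limit of detection. It was detected on 3 parental arrays and on 1 of ID8-M, and read 5.83, 5.75 and 5.53 against 5.32, 5.72 and 5.08. The lines overlapped through the second ID8-M array, and the mean of the lowest detected signals was 5.40. The difference of -0.33 ± 0.16 (SE, 95% interval -0.70 to 0.04) was not called (limma adjusted p = 0.165). Without ID8-M 2 it was -0.50 and called (limma adjusted p = 0.0326), but ID8-M 2 was the only ID8-M array on which Irs1 was detected, so that value is set against background.

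Igfbp6, a binding protein that prefers IGF2 over IGF1, was the member that rose. Its only probe read 8.15, 8.21 and 8.56 in parental ID8 and 9.27, 9.14 and 9.11 in ID8-M. Every ID8-M array was above every parental array. The mean went from 8.31 ± 0.22 to 9.17 ± 0.09 (SD, n = 3 each), a log2 difference of 0.86 ± 0.12 (SE, 95% interval 0.59 to 1.14) or 1.82-fold (limma adjusted p = 0.00124).

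In deposited intensities, Igfbp6 gave 411, 433 and 472 units in parental ID8 and 757, 671 and 635 in ID8-M, with a bead standard error of at most 5.40% of the intensity. Igfbp6 lies on chromosome 15, where the median log2 difference over 380 tested genes was 0.36, the highest median among the numbered chromosomes. With each chromosome's median removed, the Igfbp6 difference was 0.50 and still called (limma adjusted p = 0.0179). The chromosomes of Igf1 and Igf2r had medians of -0.03 and -0.03. The part that chromosome-wide shifts take in these differences was not tested further.

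Igfbp4 and Igfbp7 gave the brightest probes of the group and differed little after normalization. Igfbp4 encodes a binding protein that mainly inhibits IGF action until it is cut by PAPP-A. Its brighter probe read 12.85, 12.82 and 12.88 in parental ID8 and 13.00, 12.92 and 13.04 in ID8-M. The ID8-M arrays were all higher, but the difference of 0.14 ± 0.08 was not called (SE, 95% interval -0.04 to 0.32, limma adjusted p = 0.22). The second probe gave a difference of 0.23 ± 0.10 (SE, 95% interval 0.01 to 0.46) that also missed the call (limma adjusted p = 0.112). It was called higher without background subtraction and in the authors' normalized values, a near repeat of that run (limma adjusted p = 0.0286 each). With a trended, robust variance it was called too (limma adjusted p = 0.0190).

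Igfbp7 encodes a secreted protein of low affinity for IGFs that is also found in vessel walls. Its measurable probe read 13.99, 13.89 and 13.99 in parental ID8 and 13.64, 13.78 and 13.79 in ID8-M. All ID8-M arrays were lower, by -0.22 ± 0.08 (SE, 95% interval -0.41 to -0.03), and the call was missed (limma adjusted p = 0.0833). In deposited intensities the parental arrays gave 17248, 16182 and 16748 units and the ID8-M arrays 12650, 13621 and 13506. Parental 1 and parental 3 share the normalized value 13.989, which is also the highest Krt8 value of ID8-M. Whether normalization narrowed the difference at the top of the range was not tested. Without background subtraction the normalized difference was called (limma adjusted p = 0.0171), and also in the authors' normalized values, a near repeat of that run. With a trended variance it was called too. The 4 other Igfbp7 probes were detected on 0 arrays, although all 5 carry the same accession, so probe choice decides whether this gene appears expressed.

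**Figure D3:**
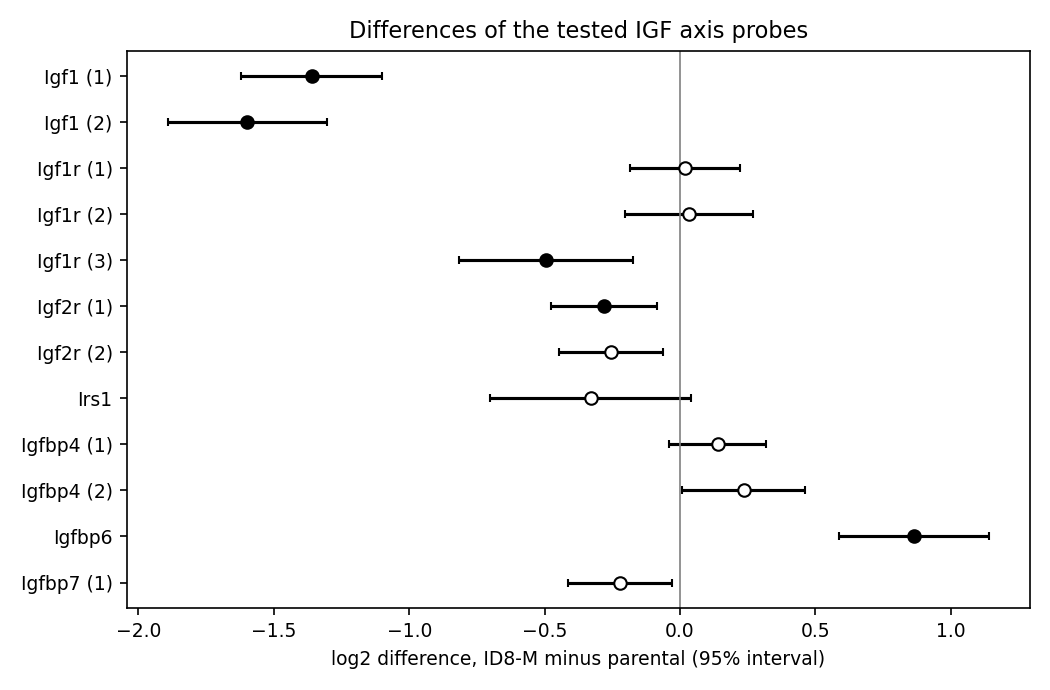
Log2 difference, ID8-M minus parental, of the 12 tested probes with 95% intervals from the limma fit (n = 3 arrays per line). Filled points passed an adjusted p of 0.05. Igf1 stands lowest by both probes and Igfbp6 highest, while the intervals of the 2 brightest Igf1r probes span 0.

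The other 3 binding proteins were at background. Igfbp2, a binding protein often raised in ovarian tumours in humans, had 2 probes with deposited intensities of 130 to 144 units and was detected on 0 arrays. Igfbp5, which binds matrix and is cut by the protease HTRA1, had 3 probes, also detected on 0 arrays, with detection p from 0.0609 to 0.996.

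Igfbp3, the main carrier of IGFs in blood, came closest to detection. Its brighter probe passed the detection limit on parental 3 (170 units) and on ID8-M 3 (171 units), and was between 143 and 161 units on the other 4 arrays. Its other probe was detected on 0 arrays. When every probe was tested without a detection filter, none of the 12 probes of the group that had not been tested was called by limma. Of these, Igfbp5 probe 3 had an unadjusted p of 0.0226, and no other was under 0.05. Values at this level have no reliable order, so no fold is given.

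For each called member, the tested genes with the most similar pattern were found by the Euclidean distance between log2 values over the 6 arrays, each gene centred on its own mean. For Igf1 these were Bdnf (distance 0.24), a neurotrophin, Lama1 (0.25), a laminin chain, and Tgfb2 (0.25), a TGF-beta ligand, with log2 differences of -1.30, -1.44 and -1.39. For Igfbp6 they were Anxa11 (0.12), Cnnm2 (0.15) and Rilp (0.16), with differences of 0.85, 0.76 and 0.76. For Igf2r they were Zbed4 (0.07), Ptpre (0.07) and Rragc (0.07), with differences of -0.28, -0.27 and -0.31. With 2 lines of 3 arrays, this likeness mostly repeats a similar size of difference.

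The rest of the pathway was read from lists of genes by role, outside the 10 members. Of 49 tested genes, 11 were called higher and 11 lower (44.9% called, against 30.8% of all tested genes), with a median log2 difference of -0.04. The lists were chosen with earlier results of these data known, so nothing particular to the pathway is read from that share. Leaving out 1 array gave 9 to 10 called higher and 6 to 9 lower, with 6 lower without ID8-M 2 and 7 lower without parental 3 or without ID8-M 3. The ligand gene Igf2 and the related Ins2 had 1 probe each, detected on 0 arrays, and Ins1 had no probe. Igf1 was thus the ligand measured above background here. An undetected probe does not show that a gene is silent, as the probes of Igfbp7 showed. Among binding protein relatives, Igfbp1, Igfbpl1 and Igfals were likewise detected on 0 arrays. The counts by role below come from few genes each. They stand beside the 15.4% called higher and 15.3% called lower over all tested genes, and nothing particular to a role is read from them.

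Insr, the insulin receptor, which can pair with IGF1R, fell from 8.26 to 7.74, a log2 difference of -0.52 ± 0.12 (SE, limma adjusted p = 0.0141). It lies on chromosome 8, where the median over tested genes was -0.31. With that median removed the difference was -0.21 and not called (limma adjusted p = 0.244), and the call was also lost without ID8-M 2 (limma adjusted p = 0.0519).

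Among proteases of binding proteins and their inhibitors, 2 of 4 tested genes fell and 0 rose. Both that fell passed the detection filter only through parental ID8, where they were higher, so nothing is read from their direction. Pappa, which encodes the protease PAPP-A that cuts IGFBP4, was detected on all 3 parental arrays and on 0 ID8-M arrays. Its levels were 5.62 and 4.94 (limma adjusted p = 0.000525). After background correction, the parental mean was 1.18-fold above the lowest detected signals of the ID8-M arrays. The size of the Pappa fall below those signals was not measured. Adamts1, a matrix protease, fell by its brighter probe from a log2 level of 6.11 (limma adjusted p = 0.00216). Its ID8-M mean of 5.26 was under the detection floor of 5.40 given for Irs1, with detection on 1 ID8-M array, so the size of the fall was not measured. Without background subtraction the differences of Pappa and Adamts1 were -0.22 and -0.27. Htra1 differed by 0.06 and Stc2, an inhibitor of PAPP-A, by -0.0033, and neither was called.

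Ghr, Jak2 and Stat5a, which act upstream of Igf1 transcription, rose in ID8-M, while Stat5b of the same list was detected on 0 arrays. Growth hormone is known to raise Igf1 transcription, mainly in liver, through its receptor, the kinase JAK2 and STAT5. Ghr, the growth hormone receptor, rose by 0.75 ± 0.08 on the log2 scale, from 9.17 to 9.92 (limma adjusted p = 0.000397). Jak2 rose by 0.61 ± 0.08 (limma adjusted p = 0.00106). Stat5a rose to a log2 level of 6.15 (limma adjusted p = 0.00248). Its parental mean of 5.34 was under that same floor, with detection on 1 parental array, so the size of the rise was not measured (0.27 without background subtraction). Jak2 rose by both of its tested probes. Of 3 tested Ghr probes 2 were called, and the other gave 0.22 and no call. The dimmest, 1 of the 2 called, was detected on 0 parental and 3 ID8-M arrays, so it was tested only through ID8-M.

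Ghr lies on chromosome 15 too, and with the chromosome median removed its difference was 0.39 and still called (limma adjusted p = 0.0119). Igf2bp1, which binds the Igf2 transcript among others, fell by 1.37 ± 0.14, from 8.84 to 7.47, and all 4 of its tested probes fell (limma adjusted p = 0.000225 for the brightest). Igf2bp3 differed by 0.01 and was not called. In this list of 5 tested genes 3 rose and 1 fell, with Stat5a tested only through ID8-M.

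Among 10 tested adaptors, Irs1 included, 1 rose and 1 fell. Gab1, a docking protein for PI3K and the phosphatase SHP2, fell by 0.82 ± 0.08 (limma adjusted p = 0.000122), and by 0.51 with the median of its chromosome 8 removed. Shc1, which links receptors to the MAP kinase branch, rose by 0.34 ± 0.09. That call was lost without any 1 of 5 arrays, with adjusted p up to 0.0645, and the other tested Shc1 probe gave 0.32 and was not called (limma adjusted p = 0.081). Irs2, the closest relative of Irs1, showed a difference of -0.12 ± 0.09 (limma adjusted p = 0.367), not a call.

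In the PI3K, AKT and mTOR list, 4 of 18 tested genes rose and 3 fell. Akt2, an AKT kinase, rose by 0.91 ± 0.10 from near background, 5.76 to 6.67 (0.35 without background subtraction). Mtor rose by 0.64 ± 0.08 by its brighter probe, while its other probe differed by 0.19 and was not called. Pik3r1, the regulatory subunit p85 alpha, rose by 0.46 ± 0.09. Inppl1, the lipid phosphatase SHIP2, fell by 0.44 ± 0.08, and all 3 of its tested probes fell. Pik3cb, a catalytic subunit, fell by 0.40 ± 0.10 and Pdpk1, the kinase that activates AKT, by 0.33 ± 0.09. Each of these last 2 calls was lost without any 1 of 4 arrays, with adjusted p up to 0.0599 and 0.0746. The other tested Pdpk1 probe gave -0.22 and was not called (limma adjusted p = 0.203).

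In the MAP kinase branch, 2 of 4 tested genes fell. Map2k1, the kinase MEK1, fell by 0.55 ± 0.12 (limma adjusted p = 0.0114). Sos2, a RAS activator, fell by 0.27 ± 0.08 (limma adjusted p = 0.0411), a call lost without any 1 of the 6 arrays. Of 8 tested FOXO factors and FOXO target genes, 3 rose and 1 fell. FOXO factors are held out of the nucleus by AKT, whose activity was not measured here. Ccng2 (0.56), Sesn1 (-0.06) and Txnip (-0.13) were tested and not called.

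Trib3, a pseudokinase that binds AKT, rose by 0.85 ± 0.11, by both tested probes. The dimmer of them was detected on 2 parental and 3 ID8-M arrays. Trib1, a related pseudokinase, rose by 0.72 ± 0.09 by its brighter probe, and its dimmer probe differed by -0.23 and was not called. It lies on chromosome 15, and without the chromosome median its rise was 0.36 and still called. Averaged over both probes the difference was 0.24 and not called (limma adjusted p = 0.0619). Bcl6, a transcriptional repressor, rose by 0.40 ± 0.08. Cited2, a transcriptional coregulator, fell by 0.29 ± 0.09 by its brightest probe and by all 3 probes. The call of its brightest probe was lost without any 1 of 5 arrays, with adjusted p up to 0.116. Foxo1 itself gave 0.31 ± 0.11 and missed the call (limma adjusted p = 0.0686).

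**Figure D4:**
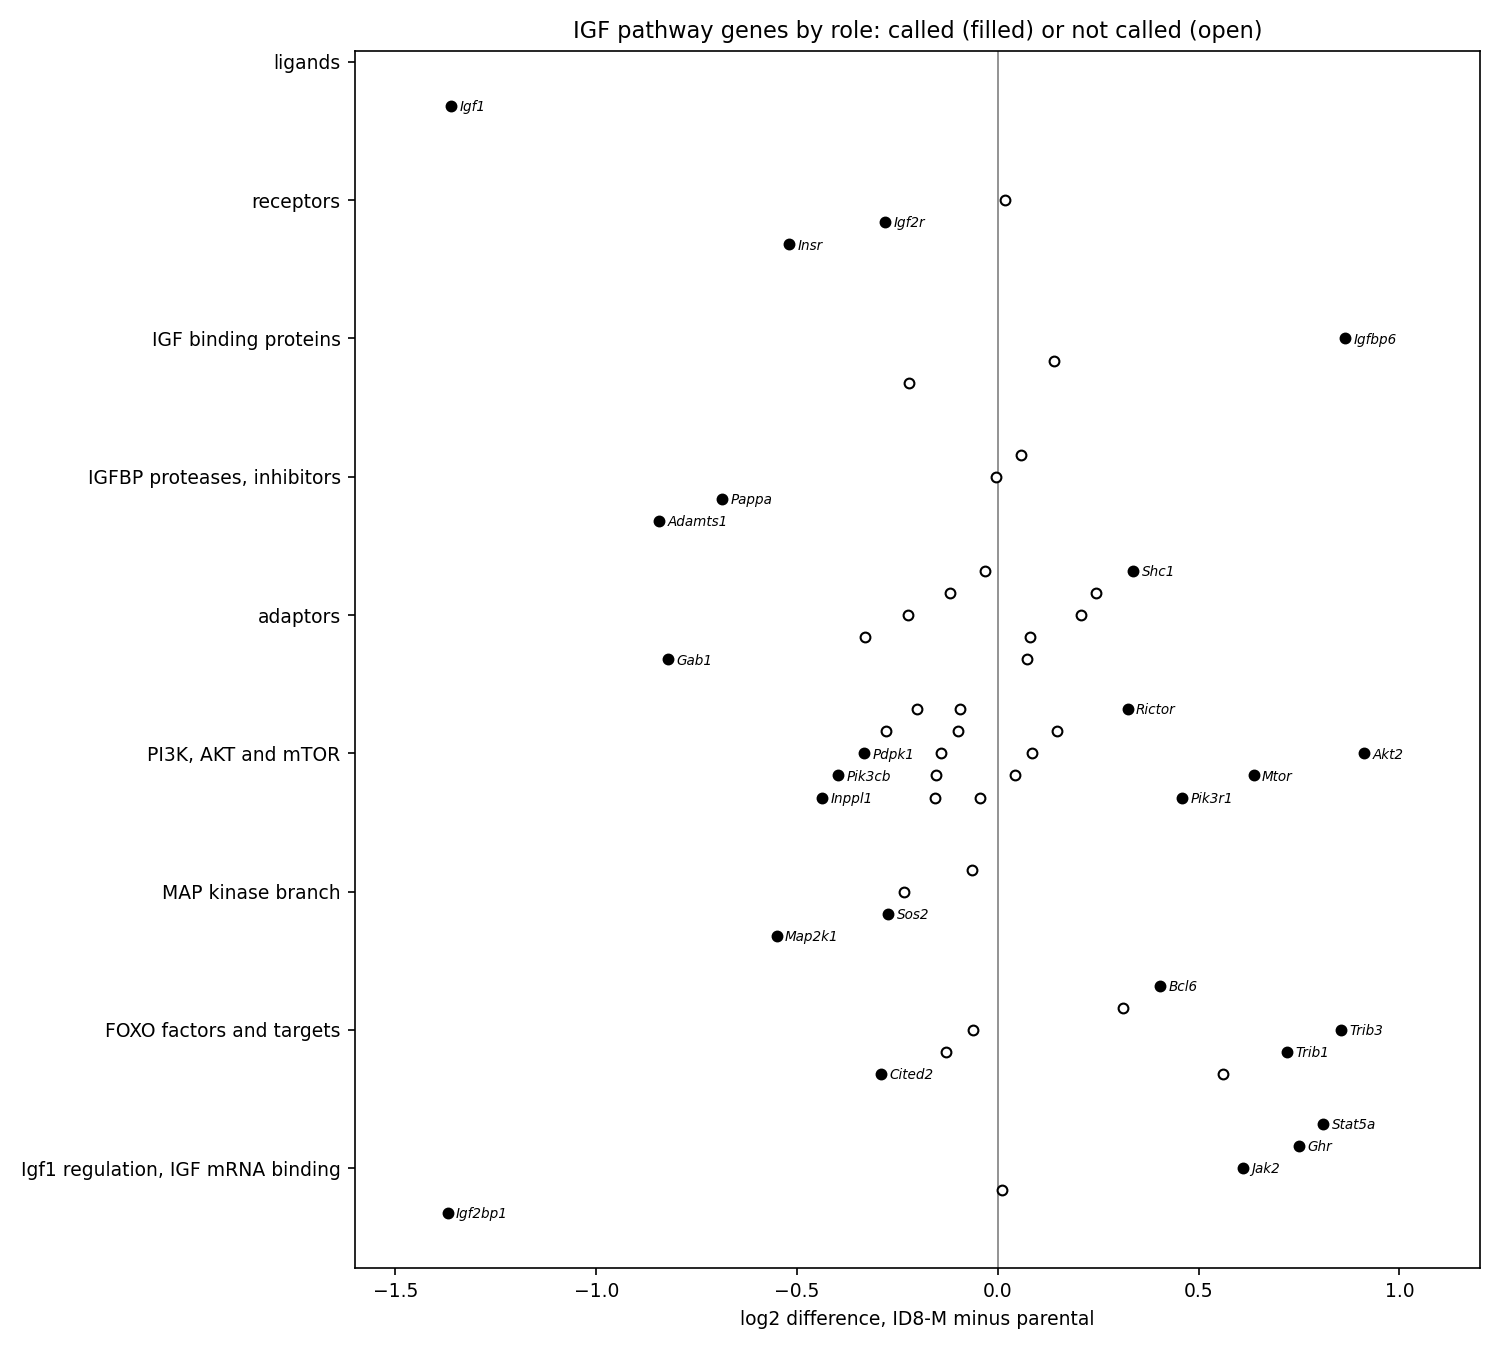
Log2 difference, ID8-M minus parental, of every tested gene of the IGF pathway lists, in rows by role and by each gene's brightest tested probe. Filled, named points passed a limma adjusted p of 0.05, and the vertical offset within a row has no meaning. Igf1 and Igf2bp1 stand lowest, and Akt2, Igfbp6 and Trib3 highest.

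**Figure D5:**
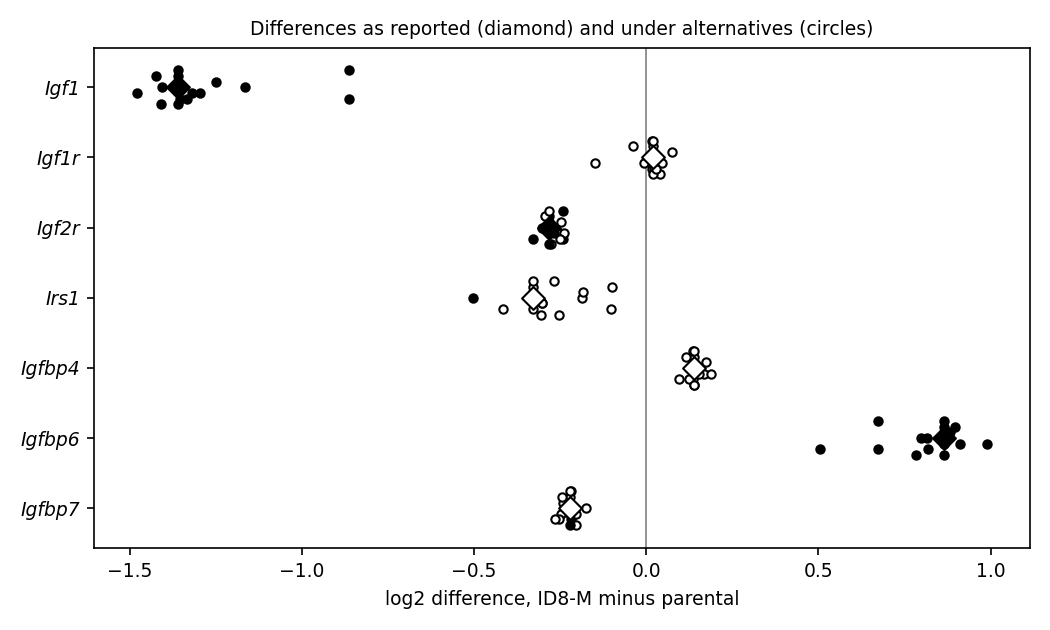
Log2 difference of the 7 tested members as reported (diamonds) and under each alternative processing run (circles). Filled symbols had an adjusted p under 0.05. Igf1 and Igfbp6 are filled throughout, Igf2r is split, and Igf1r lies around 0.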

How the data were processed

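For every probe on every array, the deposited scanner table holds a mean bead intensity (linear, neither background subtracted nor normalized per the file headers and values), a count of beads, the standard error over beads as a signal value, and a detection p-value. A second deposited table holds the authors' normalized intensity values. Each of its columns kept its array's rank order (rank correlation of 1) and came within 1.65% of plain quantile normalization. Per the labels, biotinylated cRNA was prepared with a kit for Illumina arrays.

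Background was corrected from the detection p-values, followed by quantile normalization and log2 transformation, with neqc (limma 3.58.1, R 4.3.3, offset 16). Of 45281 probes, 34885 had 1 gene symbol. Tests covered probes detected (p under 0.05) on every array of either line and were made with lmFit and eBayes (two-sided, 4 residual degrees of freedom before moderation), and p-values were adjusted by Benjamini-Hochberg over the 16221 tested probes. The fit was tested on simulated data. Genes were named by rule: every member, and per pathway list at most 3 called genes in each direction, plus the 3 nearest patterns per called member. Values of other genes named beside them, and the uncalled genes, were chosen after their values were seen. The members and lists were chosen with earlier results of these data known. Same-numbered arrays of the lines deviated from their line means with correlations of 0.04, -0.09 and 0.01, so the numbers were not taken to pair samples. Alternatives were the background, normalization, offset, filter, authors' table, variance model, probe average, chromosome median, replicate block and leaving out each array. The number of arrays limits the precision.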

Additional observations from a re-analysis of the deposited data

How the results depend on the processing

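The calls of Igf1 and Igfbp6 held under all 16 alternatives, with log2 differences from -1.48 to -0.86 and from 0.50 to 0.99. Among the alternatives, the authors' table nearly repeats the run without background subtraction. Igf2r was lost, leaving 1 member gene called lower in place of 2, with cyclic loess (-0.25, adjusted p = 0.0602), without a detection filter (-0.28, 0.0583), with the replicate block (-0.28, 0.0633) and with chromosome medians removed (-0.25, 0.0654). Leaving out 1 array gave 1 to 2 member genes called lower, with Igf2r between -0.33 and -0.24 and Irs1 between -0.50 and -0.18. Igfbp7 became called at -0.22 without background subtraction, with the authors' normalized table and at -0.22 with trended, robust variances. The second Igf2r probe was called under 6 alternatives, among them a detection p under 0.01 on all 6 arrays (adjusted p = 0.038). Other pathway genes called lower numbered 6 to 9 without 1 array, against 11, and were fewest without ID8-M 2 (6), parental 3 (7) and ID8-M 3 (7). Of 21 named pathway genes, 14 kept their call under every alternative run that tested them. Among these, Akt2, Pappa, Adamts1 and Stat5a were too dim for the stricter detection filter and had no call there. Their calls were therefore compared over 15 alternatives in place of 16. The replicate block changed, among these named genes, the calls of Pdpk1, Sos2 and Cited2 (adjusted p = 0.0575, 0.0671 and 0.0734), and that of the dimmest tested Igf1r probe (0.0506), and its count over all genes was 2330 against 2748. The causes were not tested. Probes near background, such as those of Irs1, Akt2, Stat5a and Pappa, have their differences limited by signal over background.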
